A study of Bos taurus with 8 samples.

Results

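The genes described here are 50 named genes of the cell cycle and of DNA replication, measured in liver of Holstein bull cattle on 1-colour microarrays. They were found as the non-control probes whose gene name in the array files equals a listed symbol. Of the 50 names, 46 were found, each with 1 probe of 60 bases, among 15008 probes on the array, and MKI67, MCM2, TOP2A and CENPA had no probe under these names. Testing required a signal well above background on 4 or more of the 8 arrays, which held for 41 of the 46 member probes and for 10985 in all. The other 5 (E2F1, CDC20, KIF11, CENPF and UBE2C) are given by value only.

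The comparison was made within the same 4 animals (numbers 19, 20, 23 and 24) and between 2 doses: 4 g of egg-yolk immunoglobulin with antibody against bacterial lipopolysaccharide (LPS), given daily through a rumen fistula, and 0 g, the control. All 8 samples came from fistulated bulls aged 5 to 6 months. They had changed from hay to a high-grain diet for 2 days, which provokes subacute ruminal acidosis (SARA), and were sampled 2 days after that challenge. Both doses therefore share the fistula and the challenge, and neither group is unchallenged liver; what was given at 0 g beyond the absence of antibody is not in the labels. The animals received the doses in turn in a Latin square of 11 cattle, the order of the doses is not in the labels, and the 2 g dose was not analysed here. Differences are given with the moderated SE of the limma fit, which draws each probe's variance towards that of all tested probes. It is therefore not the SE of the 4 paired differences alone. Lists of 4 values follow the order of animals 19, 20, 23 and 24, and a level is the log2 processed signal relative to the 75th percentile of its array, which compares arrays but not probes.

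A cell that divides passes a G1 commitment step driven by cyclin D and cyclin E kinases, copies its DNA in S phase from origins loaded with the MCM helicase, and then enters mitosis under cyclin A and cyclin B kinase. Many genes of DNA synthesis are switched on around the start of S phase by E2F factors, and many mitotic genes later, in G2, by MYB and FOXM1 bound to the MuvB complex. In resting cells both sets are held off, among others by DREAM, a repressor complex that also contains MuvB. Adult hepatocytes are mostly resting and can re-enter the cycle after injury, and immune and endothelial cells of liver can divide as well.

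The probes of 8 members are shown as examples of the roles described below, not as those with the widest differences: 3 genes of mitosis, 4 genes of S phase, and FOXM1, whose one high array decides its difference. Each is printed 5′ to 3′ as the array files give it, in lower case with no base marked.
CCNB2: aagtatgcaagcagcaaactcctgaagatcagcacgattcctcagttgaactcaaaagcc
TTK: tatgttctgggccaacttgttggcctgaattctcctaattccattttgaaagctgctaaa
BUB1: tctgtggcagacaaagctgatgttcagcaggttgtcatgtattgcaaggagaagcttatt
MCM5: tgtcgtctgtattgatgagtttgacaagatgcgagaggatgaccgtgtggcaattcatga
MCM6: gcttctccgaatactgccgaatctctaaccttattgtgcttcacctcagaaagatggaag
ORC1: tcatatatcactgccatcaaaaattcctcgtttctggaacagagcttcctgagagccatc
RRM2: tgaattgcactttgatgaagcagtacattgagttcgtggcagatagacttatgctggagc
FOXM1: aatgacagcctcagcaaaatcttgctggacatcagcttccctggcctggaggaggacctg
On the cattle assembly UMD 3.1 the files place the probe of CCNB2 at chr10:51247956-51248015 and that of RRM2 at chr11:87468694-87468753, both listed in descending order, which is the minus strand. The probes listed in ascending order are those of TTK at chr9:19988773-19988832, BUB1 at chr11:1567453-1567512, MCM5 at chr5:74001438-74001821, MCM6 at chr2:61852197-61852256, ORC1 at chr3:94572168-94573194 and FOXM1 at chr5:107397259-107397318. The placements of MCM5 and ORC1 span 384 and 1027 bases of genome for 60 bases of probe, so these probes join separate stretches of the genome. Exons and untranslated regions are not annotated in the files. The transcript accession of the probe led to the same symbol in a RefSeq table for 39 of the 46 members; for the other 7, FOXM1, MCM3, CDT1, CCNB1, CDKN3, AURKB and UBE2C, the name rests on the array's own annotation.

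Several arrays stood apart. Animal 19 at 4 g and animal 20 at 0 g had dim arrays, with a 75th percentile of the processed signal of 126 on both, against 218 to 312 on the other 6, and 31 and 27 of the 46 member probes were well above background there, against 35 to 43 elsewhere. The 0 g array of animal 23 carried transcripts of the exocrine pancreas: a list of 14 acinar cell genes averaged 6.76 there, against −5.14 to −3.43 on the 4 g arrays and −5.05 to −4.09 on the other 0 g arrays. Hepatocyte genes were measured on every array, as the label liver has it (17 of 19 well above background on each). The extraction protocol names rumen epithelium instead; of 15 genes of squamous and rumen epithelium 5 to 8 were above background on an array, and the keratins KRT14 and KRT4 on none. There were 25 probes with 2 clearly separate levels over the arrays, a gap of at least 1.5 log2 units. Both arrays of an animal lay on the same side for 23 of them in animal 19 and 23 in animal 20, but for 10 in animal 23 and 12 in animal 24. The 4 g arrays of animals 23 and 24 lay together for 22. The values therefore do not bear out that the arrays labelled 23 and 24 pair by animal, and results are given per animal so that animals 19 and 20 can be read alone.

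No member gene passed the test between 4 g and 0 g. At an adjusted p below 0.05 (limma with the animal as a block, Benjamini-Hochberg over all tested probes) 0 of 41 members and 0 of 10985 probes (0% of the background) were called, and at an unadjusted p below 0.05 it was 0 members and 120 probes (1.09%). The unadjusted count depended on the fit, from 16 probes within slide row 1 to 533 with array weights, and from 0 to 3 members; with array weights the 3 were CCND2 (unadjusted p = 0.0144), FOXM1 (0.0321) and MCM3 (0.0378). The median member difference, 4 g minus 0 g, was 0.10 log2 units, with 31 members higher at 4 g and 10 lower, against a median of 0.03 and 55.1% higher over all probes. After normexp, a background correction that models the local background and adds an offset, the split was 15 higher and 26 lower, with a median of −0.03. Leaving out 1 animal moved the median to −0.40 without animal 20, to −0.05 without animal 23, to 0.34 without animal 19 and to 0.53 without animal 24. The adjusted p was 1 for every member, and the intervals were wide: a member's 95% confidence interval reached a median of 1.38 log2 units to each side of its estimate, against 0.70 over all probes.

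The within-animal differences of the members spread widely and in opposite directions. In animal 20 the median member was 1.55 log2 units higher at 4 g, and 25 of 41 members were more than 1 log2 unit higher, against 10.5% of all probes. In animal 24 the sign was turned: the median was −1.32, and 27 of 41 members were more than 1 log2 unit lower at 4 g, against 3.63% of all probes. Animal 23 had a median of 0.42, with 6 members more than 1 unit higher (background 3.38%) and 2 more than 1 unit lower (7.31%), and animal 19 one of −0.16, with 5 higher (9.83%) and 6 lower (12.7%). The median over all probes was within 0.10 of 0 in each animal (0.09, −0.05, −0.01 and 0.10). There were 22 members past 1 log2 unit upward in animal 20 and downward in animal 24 at once, against 1.12% of all probes.

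These differences depended on the background correction for dim members. After normexp the median over all probes was −0.56, −0.40, −0.07 and 0.62 in the 4 animals, and that of the members −0.81, 0.14, 0.02 and 0.69, so the member median in animal 24 changed sign. Of 41 members, 4 were then over 1 log2 unit higher in animal 20 (2.43% of all probes) and 9 over 1 unit lower in animal 24 (1.14%), with 4 doing both. Among the 14 members with a mean level above the 75th percentile the directions held after normexp, with a median of 0.68 in animal 20 and 13 of 14 higher, and a median of −1.08 in animal 24 and 12 of 14 lower. Over all probes, bright and dim, 3032 of 10985 were then higher in animal 20 and 3267 lower in animal 24. The share over bright probes alone after normexp is not given here. Of the 27 dimmer members, 10 were then higher in animal 20 (median −0.47) and 3 lower in animal 24 (median 0.98).

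**Figure D1:**
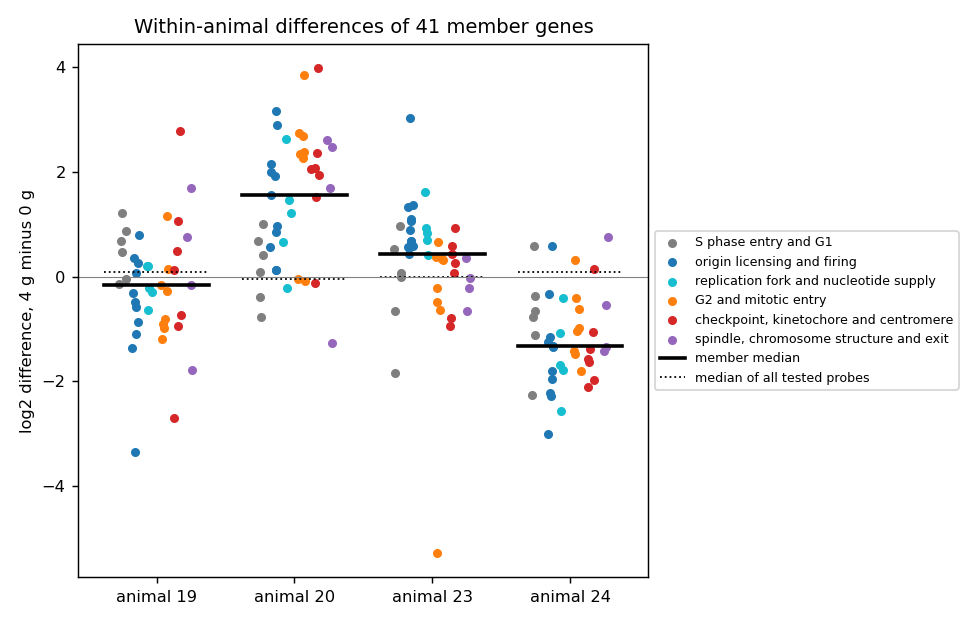
Log2 difference, 4 g minus 0 g, of the 41 tested member genes (points, coloured by role) in each of the 4 animals, with the median of the members (solid line) and of all 10985 tested probes (dotted line). The member medians lie at −0.16, 1.55, 0.42 and −1.32 in animals 19, 20, 23 and 24, while those of all probes stay near 0. After normexp background correction the member median is 0.14 in animal 20 and 0.69 in animal 24, and that of all probes −0.40 and 0.62.

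The SD of the 4 within-animal differences was 1.55 log2 units for the median member and 0.59 for the median probe, and it was over 1 for 27 of 41 members, against 18.9% of all probes. Only CCND2 had no overlap between the doses (1 of 41, background 0.619%). Only MCM3, CCND2 and FOXM1 had the same sign in 4 of 4 animals (3 of 41 members, background 5.24%). After normexp MCM3 and PLK1 had the same sign in 4 of 4 animals, and CCND2 and FOXM1 did not. High and low levels gathered on single arrays: 16 members peaked on the 0 g array of animal 24 (background 9.38%), 14 on the 4 g array of animal 20 (6.05%), and 17 were lowest on the dim 0 g array of animal 20 (15.4%). After normexp 0 members peaked on the 4 g array of animal 20 and 12 on the 0 g array of animal 24. Without normexp, 5 and 11 of the 26 members above background on all 8 arrays did. In bulk liver, more dividing cells and more of these transcripts per cell cannot be told apart. The F-test between animals called 0 of 41 members and 0 probes (0%) after adjustment, and 0 members against 298 probes (2.71%) at an unadjusted p below 0.05. The smallest of these p between animals were 0.126 for MCM3, 0.15 for CCND1, 0.154 for PLK1, 0.162 for FOXM1 and 0.259 for CCNE1.

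**Figure D2:**
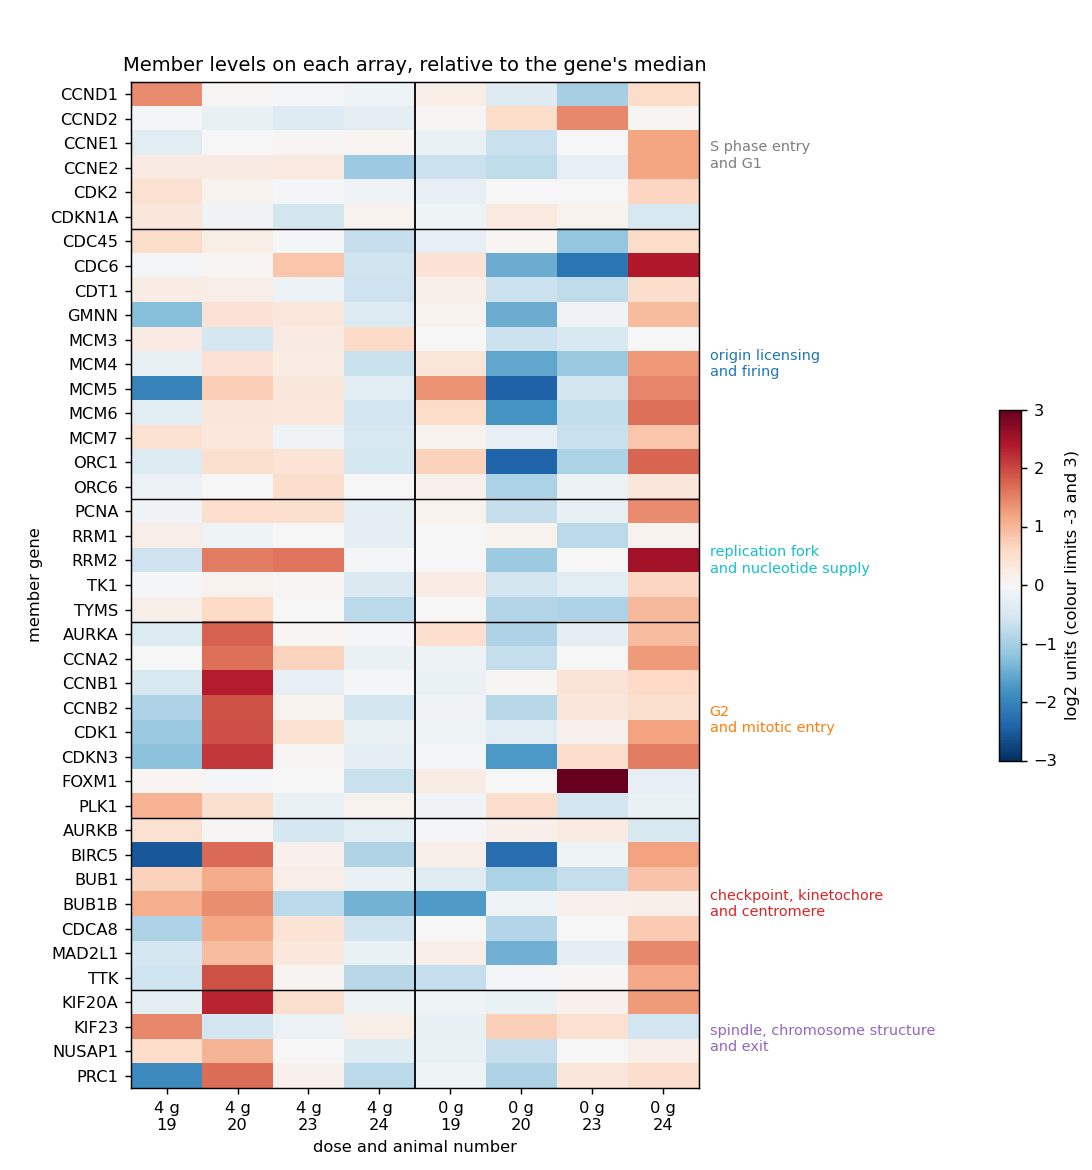
Level of each of the 41 tested member genes (rows, grouped by role) on each array (columns, 4 g left of 0 g, with the animal number), as log2 units from the gene's median over the 8 arrays. Most of the high values sit in 2 columns, 4 g of animal 20 and 0 g of animal 24, with median deviations of 0.49 and 0.83 over the members, and the 0 g array of animal 20 the low ones (−0.69).

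Of the 7 genes of G1 and S phase entry, 6 were tested. CCND2, a D-type cyclin that activates CDK4 and CDK6, had levels of 2.41, 2.22, 2.04 and 2.14 at 4 g, against 2.46, 2.98, 3.88 and 2.50 at 0 g. The 0 g array of animal 23, which carried pancreatic transcripts, was the highest, and all 4 arrays at 0 g lay above all 4 at 4 g. Its log2 difference of −0.75 ± 0.34 (unadjusted p = 0.0665) did not pass the adjusted test. CCND1, the D-type cyclin best known for its induction in regenerating liver, had 3.95, 2.56, 2.51 and 2.41 at 4 g, against 2.73, 2.15, 1.54 and 3.07 at 0 g. The 4 g array of animal 19 was the highest and the doses overlapped, with a log2 difference of 0.48 ± 0.36 (unadjusted p = 0.221).

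The E cyclins start S phase with CDK2. CCNE1 had −3.54, −3.17, −3.15 and −3.13 at 4 g, against −3.40, −3.85, −3.21 and −2.01 at 0 g, highest by over 1 log2 unit on the 0 g array of animal 24. CCNE1 had a log2 difference of −0.13 ± 0.33 (unadjusted p = 0.713). CCNE2 had −3.57, −3.57, −3.51 and −4.89 at 4 g, against −4.44, −4.57, −4.04 and −2.62 at 0 g, again highest on that array and lowest on the 4 g array of the same animal. CCNE2 had a log2 difference of 0.04 ± 0.57 (unadjusted p = 0.953). Without normexp, neither cyclin was lower at 4 g in more than 2 of the 4 animals. After normexp both peaked on the 0 g array of animal 19 and were lower at 4 g in animals 19, 20 and 23. In animal 24 they were then higher, by 0.69 for CCNE1 and 0.95 for CCNE2. The median of all probes then had the same directions. CDK2 itself differed by 0.69, 0.09, −0.01 and −0.76 within the animals and averaged 0.61 ± 0.25 at 4 g and 0.61 ± 0.38 at 0 g (SD, n = 4 each).

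CDKN1A, the p53-induced inhibitor p21 that arrests the cycle, ran against most other members in animals 20 and 24 without normexp. Its levels were −2.37, −2.80, −3.27 and −2.61 at 4 g, against −2.85, −2.41, −2.61 and −3.19 at 0 g, with lower values at 4 g for animals 20 and 23 and higher ones for animals 19 and 24. CDKN1A had a log2 difference of 0.00 ± 0.30 (unadjusted p = 0.992). Its range of within-animal differences, 1.25 log2 units, was among the 5 narrowest of the members. After normexp CDKN1A differed by −0.63 in animal 20 and 1.24 in animal 24, with medians of −0.47 and 0.98 for the 27 dimmer members. E2F1, a factor that switches on genes of DNA synthesis, was well above background on 3 arrays only, with −4.63, −5.34, −5.38 and −5.69 at 4 g, against −5.50, −4.64, −4.64 and −5.07 at 0 g, and was not tested.

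The 12 genes of origin licensing and firing load and start the replication helicase, and 11 were tested. ORC1 and ORC6 belong to the origin recognition complex, CDC6 and CDT1 load the MCM2 to MCM7 ring onto it, geminin (GMNN) blocks CDT1, and CDC45 is part of the active helicase. All 11 were higher at 4 g in animals 20 and 23, and 10 of 11 were lower at 4 g in animal 24, with role medians of −0.48, 1.55, 0.90 and −1.34 in the 4 animals. After normexp 7 of 11 were higher in animal 20, 10 in animal 23, and 6 were lower in animal 24. Of all 10985 probes, 3032, 4456 and 3267 then had these directions. MCM4 had 1.49, 2.15, 1.92 and 1.04 at 4 g, against 2.08, 0.16, 0.58 and 2.99 at 0 g. MCM6 had −1.49, −0.82, −0.83 and −1.73 at 4 g, against −0.61, −2.96, −1.89 and 0.49 at 0 g. In both genes the 0 g array of animal 24 was the highest and the dim 0 g array of animal 20 the lowest, so the 0 g values enclosed all 4 values at 4 g. For MCM4 the log2 difference of 0.20 ± 0.65 (unadjusted p = 0.774) was smaller than its SE. MCM6 had a log2 difference of 0.03 ± 0.70 (unadjusted p = 0.969).

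MCM5 had the second widest range of the members, 6.51 log2 units. Its levels were −5.16, −2.41, −2.81 and −3.51 at 4 g, against −1.81, −5.58, −3.70 and −1.70 at 0 g. MCM5 had a log2 difference of −0.27 ± 1.01 (unadjusted p = 0.797). Both low values, under −5, were those of the dim arrays, and its probe was well above background on 6 of 8. After normexp the differences of MCM5 were −1.17, −0.22, 0.21 and 0.42, with the sign turned in animals 20 and 24. MCM7 had 2.93, 2.78, 2.37 and 1.98 at 4 g, against 2.57, 2.22, 1.81 and 3.30 at 0 g, with the 0 g array of animal 24 highest and that of animal 23 lowest. MCM7 had a log2 difference of 0.04 ± 0.38 (unadjusted p = 0.91). MCM3 was the exception of the ring: it had 3.51, 2.72, 3.49 and 3.83 at 4 g, against 3.25, 2.60, 2.80 and 3.25 at 0 g, higher at 4 g in 4 of 4 animals by 0.12 to 0.69. Its range of differences, 0.57, was the narrowest of the members and its p between animals (0.126) the smallest, while the dose log2 difference of 0.41 ± 0.23 (unadjusted p = 0.122) did not pass.

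CDC6 and ORC1 showed the swing most widely among the loading factors, but only without normexp. After normexp their differences were −0.80 and −0.50 in animal 20, and 0.98 and 0.92 in animal 24. CDC6, above background on 4 arrays, had −5.29, −5.18, −4.40 and −5.83 at 4 g, against −4.81, −6.73, −7.44 and −2.82 at 0 g, a range of differences of 6.04. CDC6 had a log2 difference of 0.28 ± 0.92 (unadjusted p = 0.775). ORC1 had −4.74, −3.84, −3.91 and −4.86 at 4 g, against −3.63, −6.73, −5.28 and −2.58 at 0 g, and its 0 g arrays held both the highest and the lowest value. GMNN had −1.06, 0.64, 0.53 and −0.20 at 4 g, against 0.31, −1.28, 0.11 and 1.14 at 0 g, with both dim arrays below −1 and the others between −0.20 and 1.14. GMNN had a log2 difference of −0.09 ± 0.58 (unadjusted p = 0.882). ORC6, CDT1 and CDC45 moved less: the SD of the differences was 0.67 for ORC6, 0.88 for CDT1 and 1.05 for CDC45.

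All 5 genes of the replication fork and nucleotide supply were tested, and 5 of 5 were higher at 4 g in animal 23 and lower in animal 24, with and without normexp. Of all 10985 probes, 5423 were higher in animal 23 and 4487 lower in animal 24 without normexp. After it these counts were 4456 and 3267. PCNA, the sliding clamp of the DNA polymerases and a common marker of S phase, had 1.47, 2.09, 2.05 and 1.31 at 4 g, against 1.68, 0.88, 1.35 and 3.00 at 0 g. The 0 g array of animal 24 was the highest by almost 1 log2 unit and the 0 g array of animal 20 the lowest, and the log2 difference of 0.00 ± 0.48 (unadjusted p = 0.997) lay at 0. TYMS, which makes thymidylate, had 1.40, 1.81, 1.22 and 0.41 at 4 g, against 1.20, 0.34, 0.29 and 2.19 at 0 g, with the same highest array. TYMS had a log2 difference of 0.20 ± 0.53 (unadjusted p = 0.715). RRM2, the subunit of ribonucleotide reductase that is made in S phase, had −4.14, −1.99, −1.92 and −3.55 at 4 g, against −3.51, −4.62, −3.52 and −1.00 at 0 g. It was over 1.5 log2 units higher at 4 g in animals 20 and 23, with a difference of −2.56 in animal 24. After normexp these 3 differences of RRM2 were 0.03, 0.65 and −0.06. RRM2 had a log2 difference of 0.26 ± 0.83 (unadjusted p = 0.761). RRM1, the large and more stable subunit, had 2.69, 2.38, 2.52 and 2.20 at 4 g, against 2.49, 2.60, 1.68 and 2.62 at 0 g, with differences of 0.20, −0.22, 0.83 and −0.41. RRM1 had a log2 difference of 0.10 ± 0.28 (unadjusted p = 0.737). TK1, the thymidine salvage kinase, followed PCNA with a smaller swing, between −1.07 in animal 24 and 0.67 in animal 20.

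**Figure D3:**
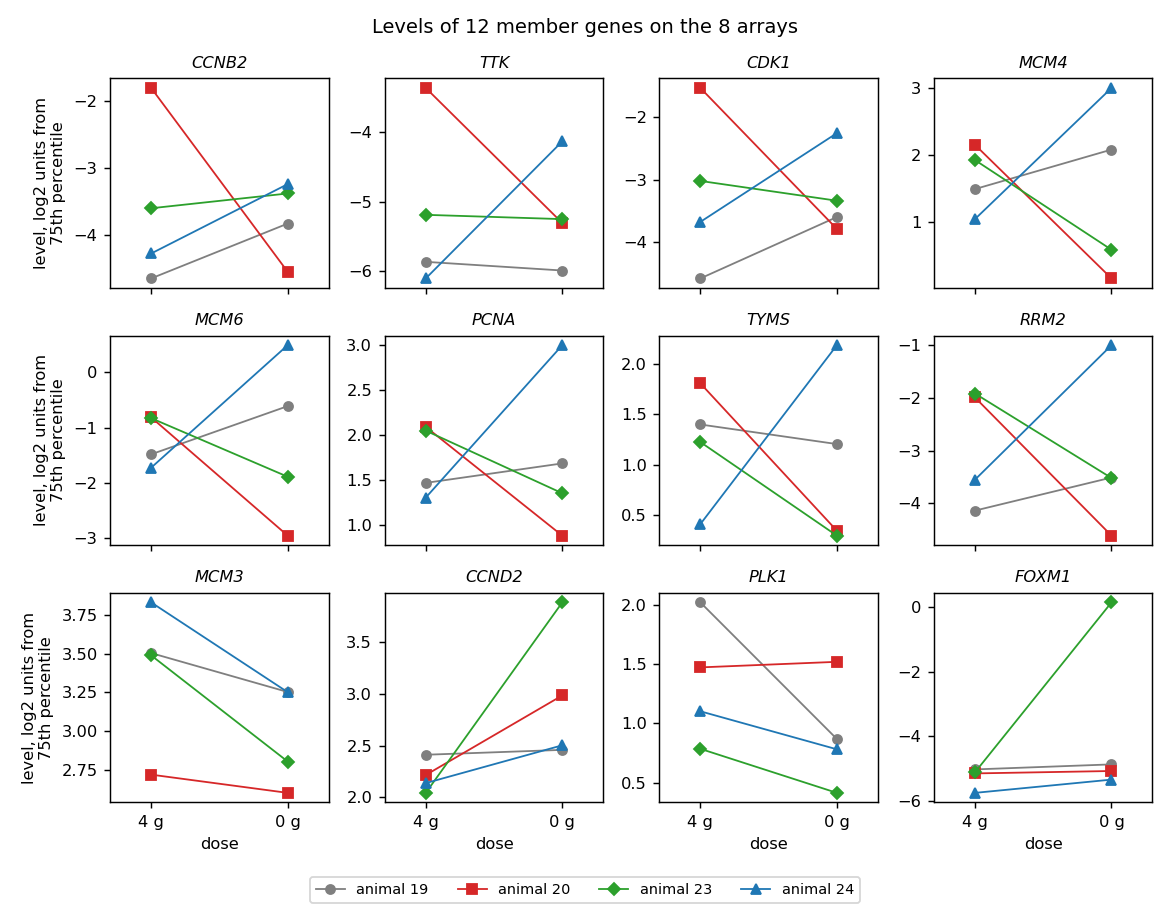
Levels of 12 member genes (log2 units from the 75th percentile of the array) at 4 g and 0 g, with a line for each of the 4 animals. CCNB2, TTK, CDK1, MCM4, MCM6, PCNA, TYMS and RRM2 are higher at 4 g in animal 20 and lower at 4 g in animal 24. MCM3, CCND2, PLK1 and FOXM1 have other shapes. After normexp CCNB2, CDK1 and TTK are higher at 4 g in animal 24, where the median of all probes is then 0.62. TTK is then lower in animal 20, where that median is −0.40. RRM2 then differs by 0.03 in animal 20 and −0.06 in animal 24. Each panel has its own vertical scale.

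The 8 genes of G2 and mitotic entry were all tested, and 6 of them were highest on the 4 g array of animal 20, but 0 after normexp. After normexp the role median in animal 24 was 0.92, with 8 of 8 higher at 4 g, against −1.01 without it. Over all probes 7714 of 10985 were then higher at 4 g in animal 24, with a median of 0.62. CDK1, the kinase that drives entry into mitosis, had −4.58, −1.53, −3.02 and −3.68 at 4 g, against −3.60, −3.79, −3.34 and −2.25 at 0 g. CDK1 had a log2 difference of 0.04 ± 0.61 (unadjusted p = 0.946). Its partner CCNB1 (cyclin B1) had −4.04, −1.20, −3.80 and −3.59 at 4 g, against −3.77, −3.53, −3.17 and −2.97 at 0 g. CCNB1 had a log2 difference of 0.20 ± 0.53 (unadjusted p = 0.716). CCNB2 had −4.64, −1.81, −3.60 and −4.27 at 4 g, against −3.83, −4.54, −3.38 and −3.24 at 0 g, with a log2 difference of 0.17 ± 0.64 (unadjusted p = 0.801). In all 3 genes the 4 g array of animal 20 lay at least 0.7 log2 units above every other array, and the 4 g array of animal 19 was the lowest of the 8. CCNA2, the cyclin of S phase and G2, had −3.14, −1.48, −2.47 and −3.35 at 4 g, against −3.30, −3.86, −3.14 and −1.87 at 0 g, with the 0 g array of animal 24 as the next highest. CCNA2 had a log2 difference of 0.43 ± 0.59 (unadjusted p = 0.49). AURKA, the kinase of spindle poles, was 2.68 log2 units higher at 4 g in animal 20, with a difference of −0.99 in animal 24. CDKN3, a phosphatase that acts on CDK1 and CDK2, had the fourth widest range of the members, with −6.16, −2.81, −4.89 and −5.21 at 4 g, against −4.98, −6.65, −4.41 and −3.40 at 0 g. CDKN3 had a log2 difference of 0.10 ± 0.90 (unadjusted p = 0.919).

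PLK1 and FOXM1 did not share this pattern. PLK1, a kinase that promotes mitotic entry, had 2.02, 1.47, 0.79 and 1.10 at 4 g, against 0.87, 1.52, 0.41 and 0.78 at 0 g, with the 4 g array of animal 19 as the highest. PLK1 had a log2 difference of 0.45 ± 0.27 (unadjusted p = 0.147). Its differences had a range of 1.20, and it was higher at 4 g in 3 of 4 animals, by 1.15, 0.37 and 0.32 in animals 19, 23 and 24. After normexp PLK1 was higher at 4 g in each animal, by 1.07, 0.18, 0.33 and 0.07. FOXM1, a transcription factor of the G2 genes, had −5.03, −5.15, −5.12 and −5.75 at 4 g, against −4.87, −5.08, 0.15 and −5.34 at 0 g. The 0 g array of animal 23, the one with pancreatic transcripts, lay over 5 log2 units above the other 7, and the part of those transcripts in this value was not tested. The log2 difference of −1.48 ± 0.90 (unadjusted p = 0.147) was the most negative of the members and rests on that array, since the difference within animals 19, 20 and 24 was −0.16, −0.08 and −0.41.

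Of the 9 genes of the checkpoint, kinetochore and centromere, 7 were tested and 5 were highest on the 4 g array of animal 20 (0 after normexp). After normexp 6 of 7 were higher at 4 g in animal 24, as were 7714 of 10985 probes. BIRC5, survivin of the chromosomal passenger complex, had the widest range of all members, 6.67 log2 units. Its levels were −5.84, −1.61, −3.18 and −4.21 at 4 g, against −3.15, −5.59, −3.44 and −2.11 at 0 g, with the lowest values on the 2 dim arrays. BIRC5 had a log2 difference of −0.14 ± 1.06 (unadjusted p = 0.9). TTK, the checkpoint kinase MPS1, had −5.86, −3.36, −5.19 and −6.10 at 4 g, against −5.99, −5.30, −5.25 and −4.13 at 0 g, and only 2 arrays were above −5, 4 g of animal 20 and 0 g of animal 24. MAD2L1, which holds back the anaphase-promoting complex, had −2.36, −0.89, −1.49 and −2.02 at 4 g, against −1.62, −3.25, −2.08 and −0.39 at 0 g, highest on the 0 g array of animal 24. BUB1, a checkpoint kinase at kinetochores, had −3.81, −3.38, −4.30 and −4.71 at 4 g, against −4.87, −5.46, −5.22 and −3.66 at 0 g, and the largest positive difference of the members. BUB1 had a log2 difference of 0.75 ± 0.50 (unadjusted p = 0.179) with a 95% confidence interval from −0.45 to 1.95. It was higher at 4 g in 3 of 4 animals and lower in animal 24, and the doses overlapped.

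BUB1B (BUBR1), above background on 4 arrays, had −4.34, −4.03, −6.24 and −6.84 at 4 g, against −7.12, −5.55, −5.30 and −5.26 at 0 g. BUB1B had a log2 difference of 0.45 ± 0.74 (unadjusted p = 0.566). It was higher at 4 g in animals 19 and 20, of slide row 1, and lower in animals 23 and 24, of slide row 2. The interaction of dose and slide row had an unadjusted p of 0.00291 for BUB1B, the only member below 0.05 (1 of 41, background 0.983%), and called 0 members and 0 probes (0%) after adjustment. CDCA8, another passenger protein, followed BIRC5 at −0.94, 2.05, 0.43 and −1.38. AURKB, the kinase of that complex, did not: its differences were 0.48, −0.13, −0.79 and 0.15, and their range of 1.27 was among the 5 narrowest. After normexp AURKB, at −0.62, −0.60, −0.38 and 1.19, had the signs of CDCA8, at −1.10, −0.63, −0.09 and 1.40. AURKB had a log2 difference of −0.07 ± 0.28 (unadjusted p = 0.811). CENPF, a kinetochore protein, was well above background on no array.

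Of the 9 genes of the spindle, chromosome structure and mitotic exit, 4 were tested. After normexp 4 of 4 were higher at 4 g in animal 24, as were 7714 of 10985 probes. KIF20A, a kinesin of cytokinesis, had −3.79, −1.22, −3.01 and −3.64 at 4 g, against −3.63, −3.69, −3.37 and −2.22 at 0 g. The 4 g array of animal 20 was highest by 1 log2 unit and the 0 g array of animal 24 came next. PRC1, which bundles midzone microtubules, had −6.97, −3.38, −4.94 and −5.88 at 4 g, against −5.19, −5.99, −4.73 and −4.53 at 0 g. NUSAP1, a spindle microtubule protein, had −4.17, −3.70, −4.73 and −5.07 at 4 g, against −4.92, −5.40, −4.70 and −4.52 at 0 g. Their log2 differences were −0.18 ± 0.71 (unadjusted p = 0.805) for PRC1 and 0.47 ± 0.40 (unadjusted p = 0.28) for NUSAP1. Both were highest on the 4 g array of animal 20. KIF23, the kinesin of the midbody, ran the other way, with −0.96, −2.96, −2.59 and −2.22 at 4 g, against −2.64, −1.69, −1.94 and −2.97 at 0 g, highest on the 4 g array of animal 19 and lowest on the 2 arrays on which the others were high. After normexp KIF23 differed by −0.92 in animal 20 and 1.19 in animal 24, with role medians of −0.51 and 1.32. CDC20, an activator of the anaphase-promoting complex, was above background on 3 arrays, highest at −4.46 on the 4 g array of animal 20, and KIF11 and UBE2C on none.

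The 2 high arrays differed by role. Comparing the 4 g array of animal 20 with the 0 g array of animal 24, which differ in both animal and dose, 11 of 11 licensing genes and 5 of 5 fork and nucleotide genes were lower on the 4 g array of animal 20, with role medians of −0.54 and −0.53. In contrast, 8 of 8 genes of mitotic entry, 6 of 7 of the checkpoint and 4 of 4 of the spindle were higher there, with medians of 0.71, 0.50 and 0.91. After normexp the counts were 10 of 11, 5 of 5, 8 of 8, 6 of 7 and 4 of 4 in the same directions. Of all probes, 58.2% were higher on the 4 g array of animal 20 without normexp, and 7668 of 10985 after it. Of 38 tested other replication genes, 34 were lower on the 4 g array of animal 20 (median −0.31). After normexp 20 were lower and 18 higher (median −0.03). Of 51 other mitosis genes, 32 were higher there (median 0.16), and 36 after normexp (median 0.23). These mitosis counts lie near the shares of all probes, whose medians were 0.09 and, after normexp, 0.20. These are values of 1 array each, with no replicate and no test.

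**Figure D4:**
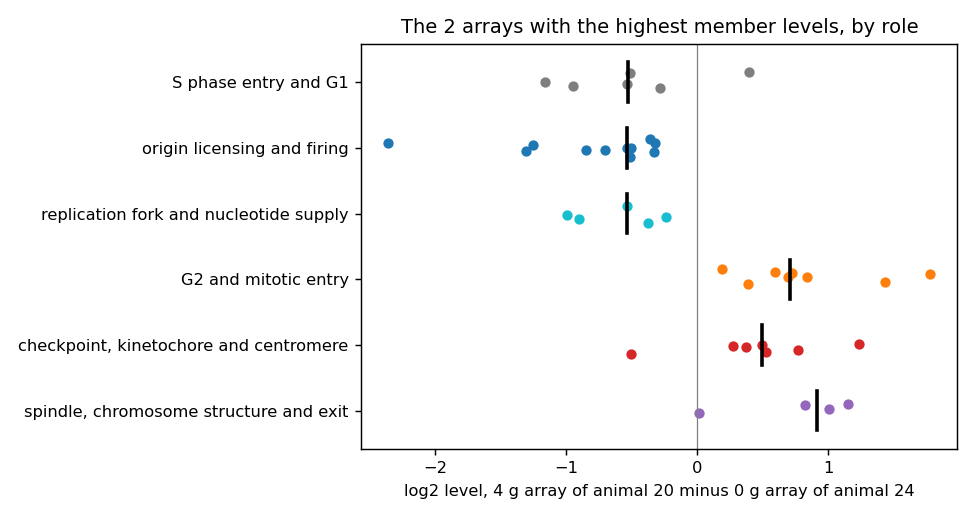
Log2 level on the 4 g array of animal 20 minus that on the 0 g array of animal 24 for each tested member (points) by role, with role medians (bars). Genes of licensing and of the fork lie left of 0 without exception, and those of mitotic entry and the spindle right of 0.

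Signal strength moved with these differences. In all 4 animals the median member was higher on the brighter array. The 75th percentile of the signal was 126, 218, 312 and 224 at 4 g, against 245, 126, 273 and 311 at 0 g, and the part of brightness in the result was not tested. Among 9249 probes well above background on all 8 arrays the SD of the differences had a median of 0.55, and of 0.98 for their 26 members, while among 1736 probes above background on 4 to 7 arrays it was 0.85, and 2.05 for their 15 members. The swing was wider in dim members. Of the 27 members with a mean level below the 75th percentile, 21 were over 1 log2 unit higher at 4 g in animal 20 (median 2.14, background 12.3%) and 19 over 1 unit lower in animal 24 (median −1.42, 4.52%). Of the 14 above that mark, 4 were over 1 unit higher in animal 20 (median 0.49, 6.74%) and 8 over 1 unit lower in animal 24 (median −1.11, 1.86%).

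With the 2 dim arrays and the array with pancreatic transcripts left out, 16 members peaked in animal 20 at 4 g and 20 members in animal 24 at 0 g, of the 5 arrays left (background 19.1% and 17.4%). Against the median of the others among these 5 arrays, 13 members were over 1 log2 unit higher on the 4 g array of animal 20 (background 1.57%), and 17 were over 1 unit lower on the 4 g array of animal 24 (2.26%). This is another measure than the difference within an animal, which in animal 20 needs one of the arrays left out and in animal 24 needs none of them. In animals 19 and 20 alone the median member difference was 0.56, with 37 of 41 higher at 4 g, and in animals 23 and 24 alone −0.46, with 34 of 41 lower. Of all 10985 probes, 6030 were higher at 4 g in animal 19 and 5167 in animal 20. In animal 23 5557 were lower, and 4487 in animal 24. The share of all probes over each pair of animals is not given here.

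**Figure D5:**
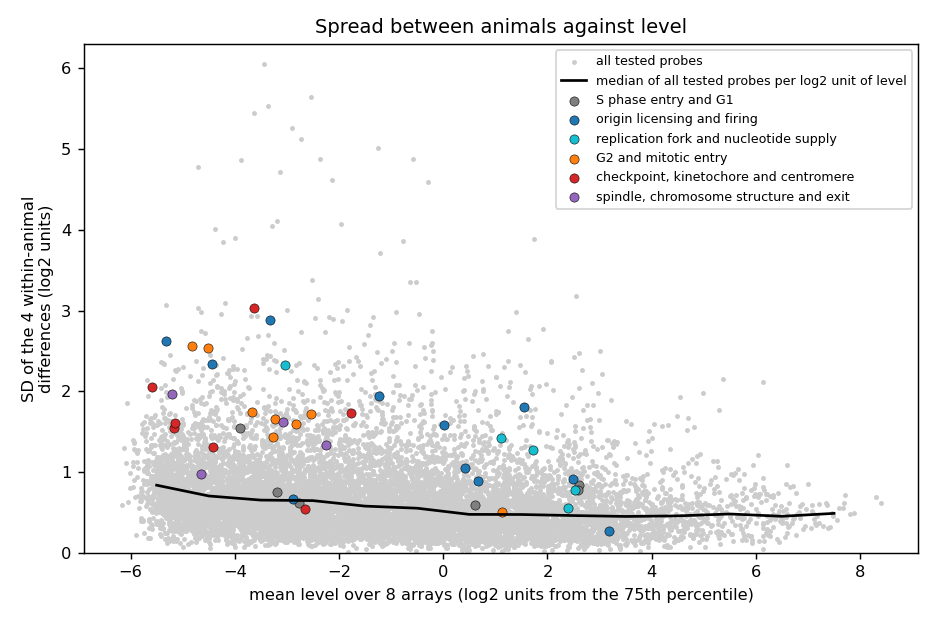
SD of the 4 within-animal differences against the mean level over the 8 arrays for all 10985 tested probes (grey), with their median per log2 unit of level (line) and the 41 tested members coloured by role. Spread grows towards dim probes, and 27 members lie above an SD of 1, some of them at levels above 0.

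Other gene lists were set beside the members, and no gene of the 4 pathway lists passed the adjusted test. Of 51 tested genes of mitosis outside the members, 26 were over 1 log2 unit higher at 4 g in animal 20 and 26 over 1 unit lower in animal 24, with medians of 0.14, 1.05, 0.01 and −1.01 in the 4 animals. Their smallest unadjusted p was that of CDCA2 (log2 difference 0.31 ± 0.22, unadjusted p = 0.211), followed by CENPE (0.32 ± 0.28, unadjusted p = 0.294) and FZR1 (−0.27 ± 0.27, unadjusted p = 0.357). Of 38 tested replication genes, 16 and 13 passed the same marks, with medians of 0.33, 0.59, 0.45 and −0.70. After normexp the medians in animals 20 and 24 were −0.27 and 0.69 for mitosis and −0.27 and 0.46 for replication, against −0.40 and 0.62 over all probes. DBF4, the activator of the origin kinase CDC7, was the 1 gene with an unadjusted p below 0.05 (0.87 ± 0.35, unadjusted p = 0.0445, higher in 4 of 4 animals), ahead of ORC5 (0.48 ± 0.22, unadjusted p = 0.067) and CDC7 itself (0.30 ± 0.25, unadjusted p = 0.267).

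Regulators of G1 and targets of p53 differed in both directions, with medians near 0. The medians of 29 tested G1 regulators were 0.32, 0.12, −0.09 and −0.08, and those of 13 tested p53 targets 0.10, 0.11, −0.24 and 0.23. The SD of the differences was over 1 for 6 of 29 and 3 of 13 (background 18.9%), with a median of 0.71 and 0.78, against 1.18 for the list of mitosis and 0.84 for that of replication. Leading the first list, with no unadjusted p below 0.05, were CDKN2B (0.87 ± 0.41, unadjusted p = 0.0738), LIN9 (0.61 ± 0.39, unadjusted p = 0.163) and TFDP1 (0.31 ± 0.22, unadjusted p = 0.207). In the second list BTG2 (−0.58 ± 0.37, unadjusted p = 0.167) came first, before SESN2 (0.23 ± 0.22, unadjusted p = 0.331) and RRM2B (0.38 ± 0.36, unadjusted p = 0.334).

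Marker lists of liver cell types had smaller differences in the 2 animals in which the members swung most. In animals 20 and 24 the median difference was −0.36 and 0.43 for 17 tested hepatocyte genes. It was 0.11 and −0.06 for 7 Kupffer cell and macrophage genes, and 0.04 and 0.16 for 12 T and NK lymphocyte genes. For 9 B and plasma cell genes it was −0.43 and 0.38, for 7 neutrophil genes −0.23 and −0.17, and for 10 endothelial genes 0.16 and 0.10. For 4 erythroid genes it was −0.16 and 0.59, and for 6 genes of squamous and rumen epithelium −0.30 and 0.22. Their part in the members' differences was not tested. Hepatocyte genes were thus lower where the members were higher, by less than 0.5 log2 units, but after normexp their medians were −0.02 and −0.12. The other marker lists, pancreas left aside, had normexp medians from −0.79 to 0.39 in animal 20 and from −0.43 to 1.58 in animal 24. Without normexp, stellate cell and fibroblast genes were lower at 4 g in both animals (−0.72 and −0.48, 10 genes). After normexp their medians were −0.78 and 0.17. For 5 bile duct genes the medians without normexp were 0.05 and −0.01 in animals 20 and 24, and −1.11 in animal 23. The mean level of the hepatocyte list ran from 3.34 to 3.73 on the 4 g arrays and from 3.25 to 3.66 on the 0 g arrays, and that of the T and NK list from −3.20 to −2.82 and from −3.04 to −2.72.

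The genes outside the members whose levels most closely followed the members' median profile over the 8 arrays were the histone variant H2AZ1 (Pearson r = 0.99), the centromere gene CENPW (0.98), the histone chaperone ASF1B (0.98) and the kinetochore gene NUF2 (0.97), then MND1, ESCO2, RNASEH2C, MELK and DUSP11 (0.96 to 0.97). H2AZ1 had levels of 0.30, 0.92, 0.61 and 0.07 at 4 g, against 0.40, −0.41, 0.35 and 1.18 at 0 g, so its highest array was again the 0 g array of animal 24. These arrays share animals and differ in brightness, so r is a description only. Set against the median profile of the other members, 16 of 41 members had an r over 0.8, against 1.29% of all probes, led by PCNA (0.96), MAD2L1 (0.95), MCM6 (0.92), CCNA2 (0.91) and MCM4 (0.91). CDKN1A (−0.71), KIF23 (−0.67) and AURKB (−0.43) ran opposite to it, and MCM3 (0.03) and FOXM1 (−0.14) did not follow it. All these r are of levels without normexp.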

How the data were processed

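RNA labelled with Cy3 was measured on 8 arrays of 1 slide. The spot intensity values were deposited as processed signals of Agilent Feature Extraction 11.0.1.1, background-subtracted and on a linear scale, per the file headers; the submitters' processing notes name version 9.5. The authors' series table holds log2 values centred on the 75th percentile, per its match to the scanner values, and was an alternative here. From the signals, log2 was taken, each array's 75th percentile was subtracted, 48 outlier spots were left out and spots of a probe were averaged. The 75th percentile ran from 126 to 312, and the share of probes well above background from 64.4% to 80.4%, so the number of arrays and the dim arrays limit the precision. Probes clearing background on 4 or more of 8 arrays were fitted in limma 3.58.1 (R 4.3.3, with data.table, version 1.17.8; summaries in Python 3.11.15, pandas 2.3.3 and numpy 2.4.6): animal as a block, eBayes, 2-sided, Benjamini-Hochberg over 10985 probes at 0.05. The fit was tested on simulated data. The block follows the animal numbers in the titles; deviations of an animal's 2 arrays from the dose means correlated at −0.19, −0.18, 0.21 and 0.13. The slide row was tested as an interaction.

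The members and lists were chosen with earlier results of these data known. Genes were named by rule: all members by role, with statistics for the extremes of difference, of range and of the p between animals and for a fixed set of main genes; up to 3 genes per pathway list by smallest unadjusted p; and the 10 other genes nearest to the members' profile, of which 1 is not reported here. Symbols outside the members came through RefSeq accessions (ARS-UCD2.0). Alternatives were normexp (offset 50), quantile normalization, the authors' table, 2 other filters, no block, array weights, robust variances, each animal or slide row left out, arrays left out, and exchanged arrays of animals 23 and 24. The counts of members highest on 1 array or past 1 log2 unit in 1 animal, with their alternatives, the role and list values after normexp and the check of probes with 2 levels were added after seeing the data. Each member had 1 probe, so averaging probes changed nothing. Promoter sequences were not used here, so no motif was searched.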

Additional observations from a re-analysis of the deposited data

Results flagged for a closer look

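In 82 sets of 4 arrays (each tested member at each dose), 8 held an array whose gap to its nearest neighbour was wide for the whole range (Dixon's test at 95%); about 1 in 20 sets would by chance. Highest alone was FOXM1 on the 0 g array of animal 23, at 0.15 with the next at −4.87. CCNB1 stood high on the 4 g array of animal 20, at −1.20 with the next at −3.59, and CCND1 on the 4 g array of animal 19, at 3.95 with the next at 2.56. Low alone were CCNE2 (−4.89, next −3.57) and FOXM1 (−5.75, next −5.15) on the 4 g array of animal 24, CCNE1 on the 4 g array of animal 19 (−3.54, next −3.17), BUB1B on the 0 g array of animal 19 (−7.12, next −5.55) and RRM1 on the 0 g array of animal 23 (1.68, next 2.49).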

How the results depend on the processing

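The count of probes that differed by dose stayed at 0 under 16 of 17 alternatives, no replicate block included, where it was 0 with 103 probes at an unadjusted p below 0.05 and CCND2 at 0.0417 (array weights 533 probes, normexp 17, without animal 19 404); without the block and the 2 dimmest arrays it was 5, none of them a member. Between animals it was 0, except 1 within slide row 1 and 0 to 1 with each animal left out in turn. The interaction with slide row had 0 calls except 12 after normexp. The median SD of the members' differences, 1.55, was 0.87 after normexp, 0.98 for probes above background on all 8 arrays, 1.01 within slide row 1, and 1.03 to 1.71 with each animal left out (lowest without animal 20). The members highest on the 4 g array of animal 20, 14, were 0 after normexp, 1 after normexp without the 2 dimmest arrays and the 0 g array of animal 23, and 5 of 26 for probes above background on all 8 arrays. Members over 1 log2 unit higher at 4 g in animal 20, 25, were 4 after normexp and 11 of 26; without those 3 arrays no such difference is left. Those over 1 unit lower in animal 24, 27, were 9 and 14 of 26, and use none of those 3 arrays. After normexp the lower quartile of the levels ran from −2.59 to −0.63 over the arrays, against −6.15 to −5.30 without it, so dim probes were compressed unequally. A single member's difference was given a direction where it exceeded its SE (7 genes); of these BUB1 and NUSAP1 turned to −0.019 and −0.033 after normexp and to −0.066 and −0.29 within slide row 2, and the cause was not tested. Among all 41 the sign turned in 0 to 24 members, most within slide row 2.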
